A study of Rattus norvegicus with 8 samples.

Results

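The genes that mark neurons by their main fast transmitter, GABA or glutamate, were followed in the hypothalamus of female and male rats. The set was 6 listed genes: Gad1, Gad2 and Slc32a1 for GABA, and Slc17a6, Slc17a7 and Slc17a8 for glutamate. These genes, and the marker lists used below, were chosen with earlier results of these data known. Probes of the 6 genes were taken by name alone, as every non-control spot of the arrays that carries 1 of those gene names. This found 6 probes for 5 of the 6 genes, on 15 of 42877 spots per array, out of 30367 probes in all. Slc32a1 had no spot under that name and was not analysed here. Total RNA came from the hypothalamus of 4 females in estrus and 4 males. All were Sprague Dawley rats 3 to 4 months old. The labels name no treatment, transgene or deletion and do not describe how the tissue was cut out. A female and a male of the same replicate number were hybridised together, in opposite dyes, to the array of that number (4 arrays). Cy3 marked females 1 and 3 and males 2 and 4, and Cy5 the other samples.

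GABA, the main inhibitory transmitter of the brain, is made from glutamate by the glutamate decarboxylases that Gad1 and Gad2 encode, GAD67 and GAD65. It is loaded into synaptic vesicles by the transporter that Slc32a1 encodes. Glutamate, the main excitatory transmitter, is loaded by the vesicular glutamate transporters VGLUT1 (Slc17a7), VGLUT2 (Slc17a6) and VGLUT3 (Slc17a8). VGLUT1 is typical of cortex and hippocampus and VGLUT2 of thalamus, hypothalamus and brainstem, while VGLUT3 is found in smaller, scattered groups of neurons. The hypothalamus holds many neurons that make GABA and many that use VGLUT2.

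Sequences are shown for the 3 probes that lie nearest the start of their transcripts, so that it is clear which stretch of each mRNA was read. The longest run of bases that any pair of the 6 probes has in common is 8. Positions are those given in the array files, on the rn4 build of the rat genome, 5′ to 3′ in lower case with no part marked. The files give no strand for the positions.
Gad1, probe A_44_P243102, chr3:52813028-52813087, base 853 of the transcript: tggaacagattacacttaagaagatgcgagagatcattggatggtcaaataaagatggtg
Gad2, probe A_44_P554928, chr17:96321562-96321621, base 1670 of the transcript: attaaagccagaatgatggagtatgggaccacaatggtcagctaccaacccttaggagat
Slc17a7, probe A_44_P505721, chr1:95649107-95649166, base 1191 of the transcript: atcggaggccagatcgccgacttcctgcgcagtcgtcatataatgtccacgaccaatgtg
The second Gad1 probe, A_64_P084971, lies further along the transcript, from base 3113 (chr3:52829951-52830010). The Slc17a6 probe, A_42_P511118, starts at base 3774 (chr1:101465828-101465887) and was printed on 10 spots of each array, while the other probes had 1 spot each. The Slc17a8 probe, A_64_P047636, starts at base 3065 (chr7:26361525-26361584). Whether a probe lies in an exon, intron or untranslated region of a gene model was not analysed here. The probes had 35% to 55% G and C, so their brightness was not compared between genes.

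Cy3 samples were brighter, with a median of 502 to 530 intensity units above local background per spot, than Cy5 samples, with 148 to 272. Saturated spots numbered 0. A level below is a log2 intensity after normalization within and between arrays. A ratio is the log2 of female over male within 1 array, followed by the value fitted to the 4 arrays with its standard error. With 4 arrays, their number sets how precise a fitted value can be. For 1 sample, a difference is its log2 level minus the median of the other 3 samples in the same dye.

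One library stood apart. The library labelled male replicate 2 differed 2-fold or more from the other Cy3 samples at 7.69% of 14488 genes, against 0.41% to 1.2% in each of the other 7 samples. Hypothalamic marker genes were lower in it and markers of glutamate neurons of cortex and hippocampus were higher. All 24 measured hypothalamic markers were lower in male 2, with a median difference of -2.28, and 18 were lower by 2-fold or more. Over all 14488 genes, 7682 were lower and 6806 higher in male 2. The 24 hypothalamic markers had a summed level of 47727 in male 2. That sum was 302572 to 362814 in the 4 females and 302258 to 341235 in the other 3 males. The hypothalamic peptide genes Avp (vasopressin) and Pmch (melanin-concentrating hormone) were 22.7-fold and 18.8-fold lower. Avp read 6265 units above local background in male 2, against 127797 to 140212 in the other Cy3 samples. Of the 24 markers, 5 (Hmx2, Kiss1, Otp, Rax and Sim1) read 0 or less above local background in male 2, and 0 did so in any other sample. Among all 14488 genes, 271 did so in male 2 and 2 to 144 in each other sample. Of 15 measured cortical and hippocampal markers 14 were higher in male 2, with a median difference of 2.58, and 12 were higher by 2-fold or more. Their summed level was 156469 in male 2 and 19619 to 26502 in the other males. Female replicate 2, read on the same array, had the next highest sum, 47543, against 19301 to 22805 in the other females. Nrgn, the brightest gene of the list, weighs most in these sums, with log2 levels of 16.57 in male 2 and 14.88 in female 2. Of the 15 genes, 13 were higher in female 2 (median difference 0.66), beside 7858 of all 14488. Normalized levels of 2 animals on the same array are not independent. Neurod6, a transcription factor gene of cortical excitatory neurons, read 2154 units above background in female 2 and 99 to 377 in the other Cy5 samples. In male 2 it read 25117, against 91 to 306 in the other Cy3 samples.

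**Figure D1:**
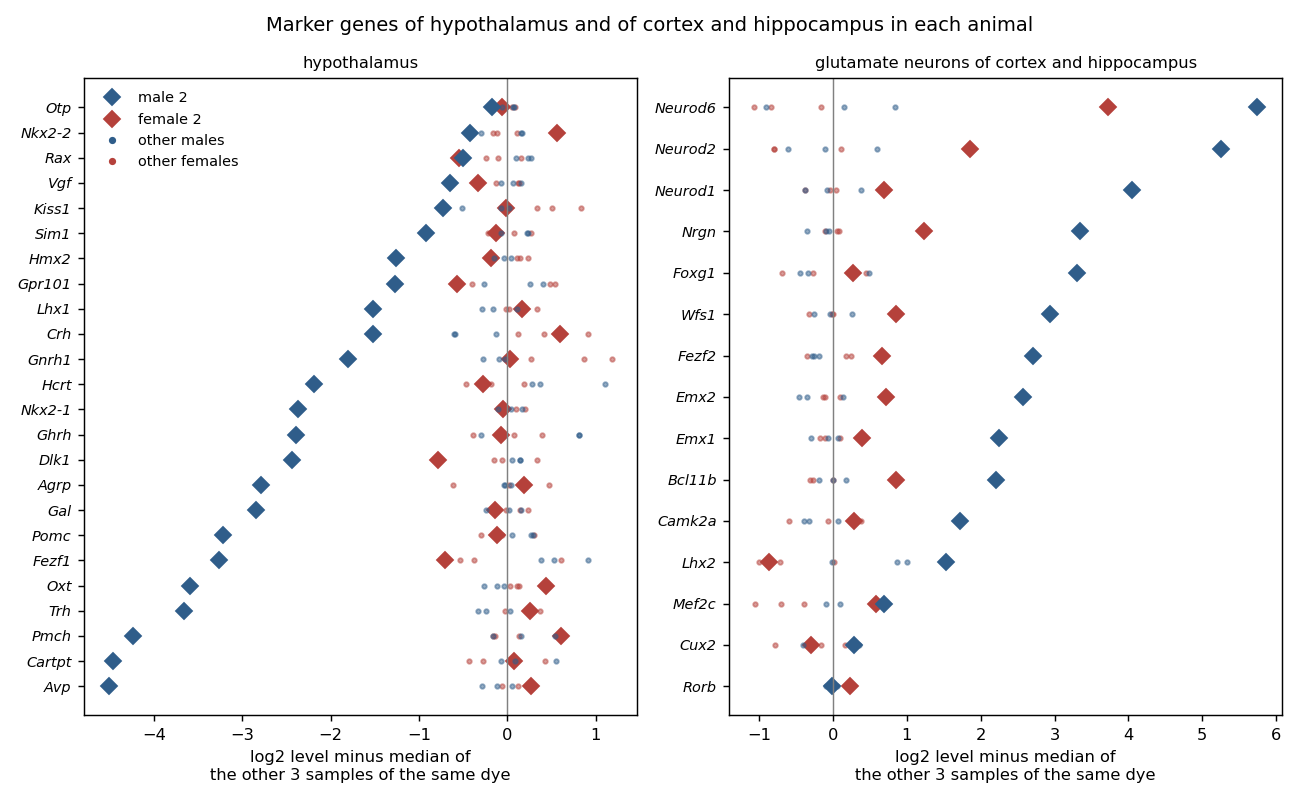
Each row is 1 marker gene, and the horizontal axis gives a sample's log2 level minus the median of the other 3 samples of the same dye, for 24 hypothalamic genes (left) and 15 genes of cortical and hippocampal glutamate neurons (right). Male 2 (blue diamonds) lies to the left for all 24 hypothalamic genes and to the right for 14 of the 15 others, and female 2 (red diamonds) lies to the right of 0 for 13 of the 15.

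No difference between the sexes could be shown for the GABA and glutamate genes that were tested. Of the 5 member probes that passed the filter on dim probes, 0 had an adjusted p under 0.05 (limma, Benjamini-Hochberg over 21995 probes). At an unadjusted p under 0.05 there were also 0. Over all probes the shares were 0% and 8.5%. The lowest adjusted p of any probe was 0.555 (limma), so the absence of a call does not show equal levels. Slc17a6 and Slc17a7 stood apart in male 2, and 1 of the 2 Gad1 probes and the Gad2 probe separated by dye.

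Gad1, which encodes the decarboxylase that supplies most GABA in the cell, was measured by 2 probes. With the brighter probe, A_64_P084971, females 1 to 4 had levels of 13.89, 12.83, 14.49 and 13.26. Males 1 to 4 had levels of 12.83, 14.22, 13.03 and 14.19. The sexes overlapped completely, and the 4 samples labelled with Cy3 (females 1 and 3, males 2 and 4) were all above the 4 labelled with Cy5. The ratio was accordingly 1.06 and 1.46 on arrays 1 and 3, with the female in Cy3, and -1.39 and -0.93 on the other arrays. The fitted sex difference was 0.05 ± 0.12 (95% interval -0.28 to 0.38, adjusted p = 0.868 by limma). The dye term of the same fit was 1.21 ± 0.12 towards Cy3, with an adjusted p of 0.0218, and 12.7% of all probes passed for a dye difference. The sign of so small a sex difference changed with the processing: it was -0.0090 from the authors' deposited value table.

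The second Gad1 probe, A_44_P243102, gave levels of 7.68, 7.67, 8.17 and 7.86 in females and 7.82, 8.43, 7.98 and 7.88 in males. It was dimmer, with 26 to 399 units above background, and well above background in all 8 samples. The highest sample was male 2, at 8.43, and the other 7 overlapped between the sexes. The dyes overlapped too, with a dye term of 0.21 ± 0.15 towards Cy3 and an adjusted p of 0.402 (limma). The ratios were -0.13, -0.76, 0.19 and -0.02 on arrays 1 to 4, and the fitted difference was -0.18 ± 0.15 (95% interval -0.59 to 0.23, adjusted p = 0.638 by limma). Without replicate 2 it was 0.0055 ± 0.10. The 2 probes of Gad1 differed in sign, and both intervals included 0.

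Gad2 encodes the decarboxylase found mainly at nerve terminals. Its levels were 11.34, 10.85, 11.07 and 10.82 in females and 10.64, 11.01, 10.34 and 11.67 in males. Here too each of the 4 Cy3 samples was above each of the 4 Cy5 samples, and the highest and the lowest sample were both males. The ratios were 0.70, -0.16, 0.73 and -0.85, and the fitted difference was 0.11 ± 0.13 (95% interval -0.25 to 0.47, adjusted p = 0.742 by limma). The dye term was 0.61 ± 0.13 towards Cy3, with an adjusted p of 0.0581. Without replicate 2 the sex difference was -0.07 ± 0.07, and from the authors' deposited value table it was -0.02.

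**Figure D2:**
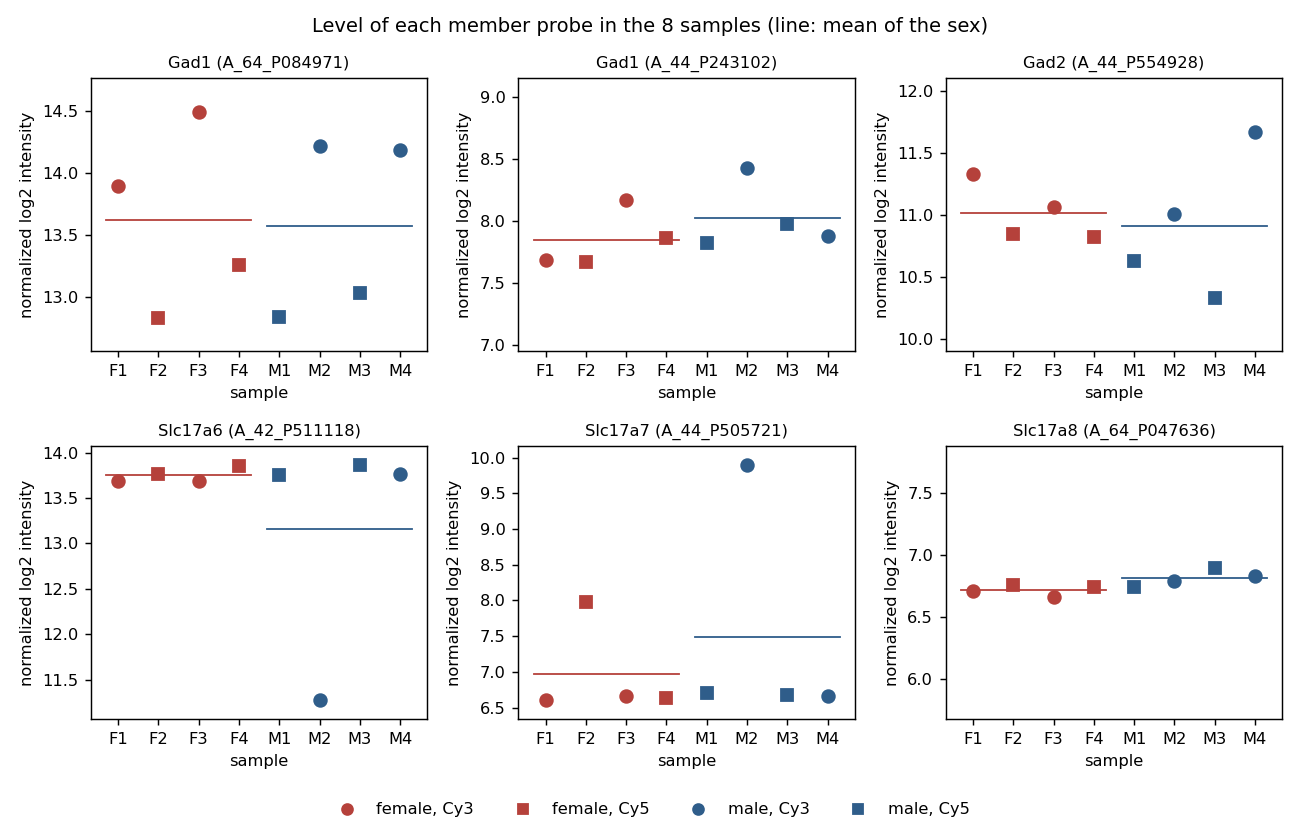
Each panel plots the normalized log2 intensity of 1 probe (vertical axis) in females 1 to 4 and males 1 to 4, with circles for Cy3, squares for Cy5 and a line at the mean of each sex; the vertical scales differ between panels. Gad1 probe A_64_P084971 and Gad2 separate by dye, Slc17a6 is low and Slc17a7 high in male 2, and Slc17a8 stays between 6.66 and 6.89.

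Slc17a6, the VGLUT2 gene, had nearly the same level in 7 of the 8 animals. Females 1 to 4 stood at 13.69, 13.77, 13.68 and 13.86, and males 1, 3 and 4 at 13.75, 13.86 and 13.77. Male 2 stood at 11.27. Its signal above background was 3938 units, against 18289, 20930 and 21636 in the other Cy3 samples, and its level was 5.33-fold below their median. The 10 spots of the probe agreed on each array: on array 2 the male channel read 3282 to 4629 and the female channel 6973 to 9054, and the standard deviation of the log2 ratio over the 10 spots was 0.10 to 0.18 on the 4 arrays. Spots of 1 array share the same RNA and are not replicates of the animal.

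The female level of Slc17a6 was 13.75 ± 0.08 (SD, n = 4) and the male level 13.16 ± 1.26 (SD, n = 4). The ratios were -0.06, 2.50, -0.18 and 0.09 on arrays 1 to 4, so array 2 stood far from the others. The fitted difference was 0.59 ± 0.42, a 1.5-fold higher level in females (95% interval -0.55 to 1.72, adjusted p = 0.607 by limma). Leaving out replicate 2 gave -0.02 ± 0.07 (limma adjusted p = 0.953), and leaving out replicate 4 gave 1.19 ± 0.07 (limma adjusted p = 0.0309). Each of these fits had only 1 array with the female in Cy5: array 4 without replicate 2, and array 2 without replicate 4. That array alone set its side of the fit. Hypothalamic markers were low in the same animal, as given above, but not alone. Markers of midbrain and hindbrain neurons were lower in male 2 at 5 of 5 genes (median difference -0.95). Those of thalamus and habenula were lower at 5 of 8 and higher at 3 (median -0.51). Striatal markers were lower at 6 of 12 and higher at 6. Over all genes, 7682 of 14488 were lower. The part of these lists in the result was not tested. In tissue samples such as these, fewer cells of a type and less RNA per cell cannot be told apart.

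Slc17a7, the VGLUT1 gene, was close to background in most animals and high in male 2. Levels were 6.60, 7.98, 6.67 and 6.63 in females 1 to 4 and 6.70, 9.89, 6.67 and 6.66 in males 1 to 4. Male 2 stood 3.23 above the median of the other Cy3 samples, a 9.41-fold difference that is compressed by the offset of 50 units added before the logarithm. Its signal above local background was 1461 units, against -12, -3 and -5 in the other Cy3 samples. Female 2, the next highest, read 27 units in Cy5, against 1 to 8 in the other Cy5 samples, and its level was 1.31 above their median. Since normalization acts on the ratio of an array, the levels of female 2 and male 2 are not independent. The scanner software, which estimates background differently, placed the probe well above background in 3 of 4 females and 3 of 4 males, all but female 4 and male 3.

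Because it was not well above background in every sample of either sex, Slc17a7 was left out of the test. Its ratios were -0.10, -1.91, -0.0060 and -0.03 on arrays 1 to 4, all below 0, with a mean of -0.51. Without replicate 2 the value was -0.04, and with the scanner's own log ratio it was -1.59. With no filter on dim probes the standard error was 0.34 and the adjusted p 0.675 (limma). In male 2, Slc17a7 and the cortical and hippocampal markers were high together, and the part of those markers in the result was not tested.

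Of 14488 genes, 32 were further below the other Cy3 samples in male 2 than Slc17a6 was. The share of genes 2-fold or more lower in male 2 was 3.77%, and the share 2-fold or more higher was 3.92%. Of the 6 member probes Slc17a6 was past that size downwards and Slc17a7 upwards. The probes of Gad1 and Gad2 were not. The differences of male 2 for Gad1 were 0.03 with the brighter probe and 0.55 with the other, a 1.46-fold higher level, and for Gad2 -0.33, a 1.26-fold lower level. In this library Slc17a6 and Slc17a7 differed in opposite directions, and each by more than Gad1 or Gad2. These differences concern 1 library and have no replicate.

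Slc17a8, the VGLUT3 gene, was at the edge of detection. Its signal above local background was -2 to 16 units in the 8 samples, and the probe was well above background in females 1 and 3 and in all 4 males. It therefore entered the test through the males alone, the sex in which it read higher, and its p-values carry that selection. Levels were 6.71, 6.76, 6.66 and 6.74 in females and 6.74, 6.79, 6.89 and 6.83 in males. The groups overlapped, since male 1 lay below females 2 and 4, and the whole range was 6.66 to 6.89. The ratios were -0.03, -0.03, -0.24 and -0.09, below 0 on 4 of 4 arrays. The fitted difference was -0.10 ± 0.07 (95% interval -0.29 to 0.09, adjusted p = 0.61 by limma). The size depended on how background was treated. It was -0.84 ± 0.16 with the scanner's log ratio (unadjusted p = 0.0049, adjusted p = 0.605 by limma) and -0.26 ± 0.09 with no background correction (unadjusted p = 0.044, adjusted p = 0.587 by limma). Male 2 was 0.08 above the median of the other Cy3 samples.

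**Figure D3:**
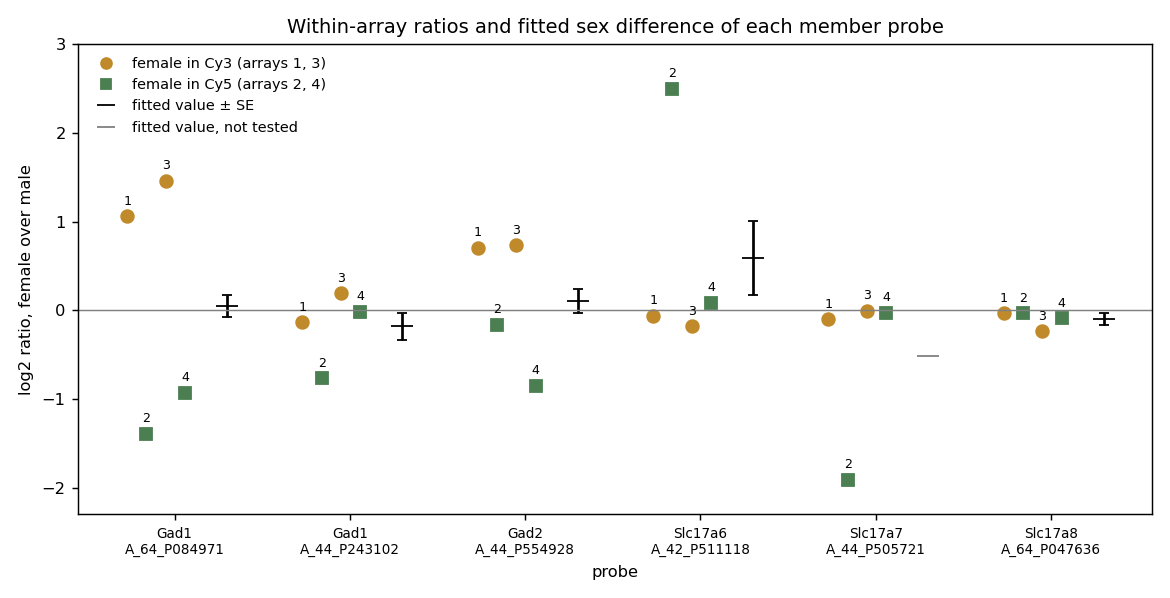
The vertical axis gives the log2 ratio of female over male for each probe, with points for arrays 1 to 4 (numbered; circles where the female carried Cy3, squares where it carried Cy5) and a bar for the fitted value with its standard error. Gad1 probe A_64_P084971 has circles near 1 and squares near -1, array 2 stands alone for Slc17a6 at 2.50 and for Slc17a7 at -1.91, and every standard error other than that of Slc17a6 is at most 0.15; Slc17a7 was not tested.

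The genes that act after GABA is made were measured for all 10 genes of a list of GABA release and clearance. None had an adjusted p under 0.05, 6 were above 0 and 4 below, and the median log2 ratio was 0.06, beside 0.0215 over 14603 named genes. Without replicate 2 the counts were 5 above and 5 below. Gphn, the scaffold protein gephyrin of inhibitory synapses, was the only one of the 10 with an unadjusted p under 0.05. The share over all named genes was 8.52%. Gphn stood at -0.42 ± 0.09 (adjusted p = 0.555 by limma). Its ratios were below 0 on 4 of 4 arrays, at -0.02, -0.91, -0.19 and -0.55 on arrays 1 to 4. The glial GABA transporter gene Slc6a11 stood at 0.23 ± 0.13, and Abat, the enzyme that breaks GABA down, at 0.21 ± 0.14. Array 2 gave the largest ratio of both, 0.80 and 0.70. The other arrays gave -0.05 to 0.15 for Slc6a11 and -0.05 to 0.12 for Abat. Slc6a13, a GABA transporter of the meninges and vessels, varied most between animals: its level ranged from 8.62 in male 2 to 11.95 in male 1, with the females between them, and its ratio was 2.69 on array 2. In male 2 the median difference of the list was -0.25, with 7 of 10 genes lower. Sv2b, a synaptic vesicle gene, was 2.37-fold higher in male 2, and Slc6a13 was 2.82-fold lower.

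Of 13 genes of glutamate supply and clearance, 5 were above 0 and 8 below, with a median log2 ratio of -0.07 and 0 past an adjusted p of 0.05. Gls2, a glutaminase that makes glutamate, stood at 0.26 ± 0.08, and Got1, an aminotransferase that interconverts glutamate and aspartate, at -0.66 ± 0.20 (adjusted p = 0.555 for each by limma). Those were the 2 of 13 with an unadjusted p under 0.05, beside a share of 8.52% over all named genes. Gls2 separated by dye, with ratios of 1.32 and 1.08 with the female in Cy3 and -0.62 and -0.73 with the female in Cy5. Got1 was below 0 on 4 of 4 arrays, most on array 2, at -1.56. Glul, the glutamine synthetase of astrocytes, stood at -0.49 ± 0.19. In male 2, Slc1a1 (a neuronal glutamate uptake transporter) was 2.48-fold higher and Slc25a22 (a mitochondrial glutamate carrier) 2.23-fold higher, and 0 of the 13 genes were lower by 2-fold or more.

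Transcription factors of GABA neurons were spread around 0. Of 9 measured genes 5 were above 0 and 4 below, with a median log2 ratio of 0.01 and 0 at an unadjusted p under 0.05. In male 2 their median difference was -0.06. Dlx2 was lower there by 2.23-fold. Lhx8 varied between animals of both sexes, with levels of 8.11 in male 2, 8.12 in female 1 and 10.94 in female 3. Among 10 interneuron markers, many of them made by GABA neurons, the median ratio was -0.01. Cck was 8.67-fold higher and Calb2 3.99-fold lower in male 2, and the median difference of the list was 0.02. Of 9 genes for other transmitters, all 9 were lower in male 2, among them Hdc, the histamine-synthesising enzyme, at 6.75-fold. Over all genes, 7682 of 14488 were lower in male 2. Pan-neuronal genes had a median difference of 0.31 there.

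Across the sexes, 23 of the 24 hypothalamic markers were above 0, with a median log2 ratio of 0.50, and 14 of the 15 cortical and hippocampal markers were below 0, with a median of -0.44. Slc17a6 and Slc17a7 had ratios of the same sign as these respective lists. Without replicate 2, 13 hypothalamic markers were above 0 and 11 below (median 0.0038), and 6 cortical and hippocampal markers were above and 9 below (median -0.07), while Slc17a6 and Slc17a7 were at -0.02 and -0.04. No gene of either list had an adjusted p under 0.05 (limma) in either fit. At an unadjusted p under 0.05 there were 3 hypothalamic and 3 cortical and hippocampal markers, and without replicate 2 there were 6 and 5. Among all named genes those shares were 8.52% and 8.03%. Oligodendrocyte genes, which mark myelinating glia, were below 0 at 13 of 13 (median -0.26) and, without replicate 2, at 9 of 12 (median -0.21). Of 14603 named genes 8208 were above 0 and 6395 below. Without replicate 2, of 14506 named genes 8397 were above 0 and 6109 below.

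**Figure D4:**
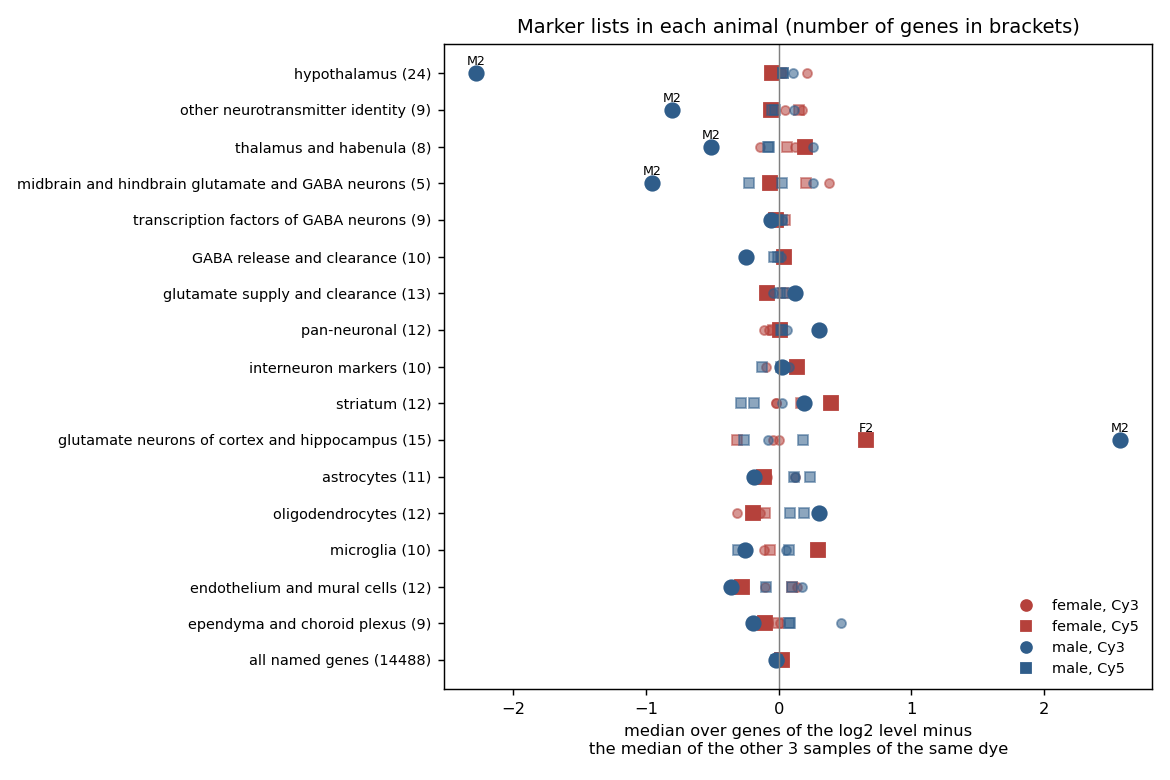
Each row is a gene list, with the number of genes complete in all samples, and each point is 1 animal's median over the list of the log2 level minus the median of the other 3 samples of the same dye (colours for sex, circles for Cy3, squares for Cy5). Male 2 lies at -2.28 for hypothalamus and 2.58 for glutamate neurons of cortex and hippocampus, and at -0.06 for transcription factors of GABA neurons.

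Genes with a level pattern most like each member were named by the Pearson correlation over the 8 samples, after centring on the mean of each dye, as a description: the samples share arrays and dyes. For Slc17a6 they were Slc7a3, Pdrg1, Fkbp11, Calcr and Fxyd6, with r from 0.9972 to 0.9985. Male 2 was low for all 5, with differences of -3.66 for Calcr and -2.94 for Slc7a3 on the log2 scale. Without replicate 2 the same correlations were -0.0032 to 0.74. For Slc17a7 they were Kcnip2, Rprml, Cmya5, Crygd and Tex10, with r from 0.9983 to 0.9989, and -0.23 to 0.63 without replicate 2. The genes were chosen on all 8 samples, so the values without replicate 2 are no independent check.

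For Gad1 the nearest genes were Mtmr7, Gsta6, Ttc1, C4h2orf42 and Skp2, with r of 0.943 to 0.977, and 0.936 to 0.99 without replicate 2. For Gad2 they were Btd, Rnase13, Zfyve21, Tmem248 and Ripor2, with r of 0.932 to 0.98, and 0.915 to 0.977 without replicate 2. For Slc17a8, whose level is near background, they included Ppm1b, Fbxw12, Retsat and Rab7b, with r of 0.956 to 0.9603. These genes too were picked for the highest r on all 8 samples. Their high r, with or without replicate 2, is therefore no independent check.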

How the data were processed

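Agilent Feature Extraction 10.7.3.1 quantified the scans, per the submitters' processing notes. Spot and local background signals are intensity values as scanned, per the file headers. The scanner's log ratio is log10 of red over green, per the file headers. The authors deposited a value table of log2 values. Each column equalled log2 of the median signal above the median local background, up to a constant, for 100% of 27946 to 30846 values (tolerance 0.01), and was centred at a median of 0.

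Background was corrected with normexp on mean signals (offset 50). Loess was then run on each array with control spots at weight 0 (limma 3.58.1 and R 4.3.3, with jsonlite 2.0.0). Spots marked as outliers, 931 to 1096 on an array, were dropped, and repeated spots of a probe were averaged. Levels were further scaled between arrays by average intensity. A probe entered the fit if the share of its spots well above background was over 0.5 in every sample of 1 sex or both. This held for 22004 probes, and 21995 could be fitted. Ratios of female over male were modelled with a sex term and a dye term, and adjusted p-values are Benjamini-Hochberg with a threshold of 0.05. The brightest fitted probe stood for a gene of a list. Current names could be found through accessions for 17328 probes. The files' own names were kept for 5371, and 7668 stayed unnamed. The fit was run on simulated ratios with set differences and independent normal noise. They held no animal that stood apart as male 2 did, so that run does not bear on its effect.

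The shared array is the block that pairs the animals. After centring on the dye, the deviations of both animals from their sex's mean had correlations over genes, which are not independent, of 0.61 (array 1), 0.68 (array 2), 0.46 (array 3) and -0.08 (array 4).

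Members and lists were chosen with earlier results of these data known. Named genes were all probes of the members, the 5 genes most correlated with each, up to 2 genes of smallest p per list, the genes of both pathway lists and defining tissue markers. The values of some genes that this rule names are not reported here. List genes singled out for their size in male 2 were chosen after their values were seen, as was the comparison of male 2 with the other Cy3 samples. Alternatives covered the dye term, the block, background correction, normalization, signals, filters, outlier spots, the prior and each replicate left out. Plots were made in Python 3.11.15 with matplotlib 3.10.9.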

Additional observations from a re-analysis of the deposited data

Results flagged for a closer look

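Of 12 groups of 4 samples (6 probes in each sex), 3 held a sample whose distance from its nearest neighbour took up nearly the whole range of its group. Chance alone picks out about 1 in 20 groups where the 4 values are independent and come from 1 normal distribution. The groups here hold both dyes and share arrays, and those of Slc17a7 lie mostly near background. That rate therefore cannot be set against the count of 3. Slc17a6 in male replicate 2 was low, at a log2 level of 11.27. Slc17a7 in male replicate 2 was high, at 9.89. Slc17a7 in female replicate 2, read on the same array, was high among the females, at 7.98. All 3 lie on array 2, where the levels of the 2 channels are not independent.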

How the results depend on the processing

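With each replicate left out in turn, the log2 ratios ranged over -0.065 to 0.16 for Gad1 probe A_64_P084971, -0.37 to 0.0055 for Gad1 probe A_44_P243102, -0.066 to 0.28 for Gad2, -0.017 to 1.19 for Slc17a6, -0.98 to -0.04 for Slc17a7 and -0.15 to -0.05 for Slc17a8. Member probes past an adjusted p of 0.05 numbered 0 to 1, at an unadjusted p under 0.05 0 to 3, and over all probes 0 to 1486 and 428 to 6481. The highest count came without replicate 4 each time, and the lowest of 428 without replicate 3. From the authors' deposited value table Gad1 (A_64_P084971) was -0.0090 and Gad2 -0.024, and the mean of the Gad1 probes was -0.066, all changed in sign. With the scanner's log ratio Slc17a7 was -1.59, Gad1 (A_44_P243102) -0.61 and Slc17a8 -0.84, and without background correction the last 2 were -0.42 and -0.26. Slc17a8, which passed the filter through the males alone, was the 1 member probe with an unadjusted p under 0.05 under each. Of 21995 probes fitted, 1770 had such a p with the scanner's log ratio and 1658 without background correction. All probes at an unadjusted p under 0.05 numbered 638 with no dye term and 1142 with median centring. The thalamic list had a median log2 ratio of 0.17, and -0.05 without replicate 2, and the midbrain and hindbrain list 0.12, and 0.70 with the scanner's log ratio. The causes were not tested. Without the array as replicate block, Slc17a6 stayed at 0.59 (adjusted p = 0.744 by limma), 1704 probes had an unadjusted p under 0.05, and no call changed. The other alternatives kept the sign and the side of the threshold of every member probe. Slc17a7 and Slc17a8 had no fitted value from the authors' table or where all 8 samples had to be well above background. The signals of Slc17a7 and Slc17a8, near background, limit what their ratios can show.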
